A study of Mus musculus with 6 samples.

Results

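Class I antigen presentation was followed through 10 genes in mouse pancreatic ductal adenocarcinoma (PDAC) organoids with and without a Jag1 knockdown. The genes are the heavy chains H2-K1 and H2-D1, the light chain B2m, the peptide loading genes Tap1, Tap2 and Tapbp, the immunoproteasome subunits Psmb8 and Psmb9, the transactivator Nlrc5 and the checkpoint ligand gene Cd274. They were listed by name, and all 10 were found among the 14254 genes of the table. RNA was sequenced in 6 libraries of the organoid line KPF_5.3G, labelled wild type, 3 carrying the lentiviral shRNA shJag1_3 against Jag1, a ligand of the Notch receptors, and 3 carrying a control shRNA (shCtrl). All grew in 1 organoid medium whose added factors were gastrin, EGF, FGF-10 and conditioned media holding Noggin and R-Spondin-1, per the labels' protocols. The knockdown rests on 1 hairpin in 1 line, and the design asks what Jag1 does in CD9-high tumour-initiating cells of a hybrid epithelial-mesenchymal state. Libraries are called knockdown 1 to 3 and control 1 to 3 after their replicate numbers.

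Cells show fragments of their own proteins on class I molecules, where cytotoxic T cells can read them. Proteasomes cut the proteins, the transporter made of Tap1 and Tap2 carries the peptides into the endoplasmic reticulum, and tapasin (Tapbp) holds the empty class I molecule at the transporter until a peptide fits. Interferon-gamma raises most of these genes, and NLRC5 is a transcriptional activator of many of them. Loss of class I display is a known way by which tumours, pancreatic cancer among them, escape T cells, and PD-L1, the product of Cd274, restrains T cells through the receptor PD-1.

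The 6 libraries held 22268997 to 35172593 reads, and values are normalised counts, that is reads divided by 1 size factor per library. Jag1 itself stood at 226, 321 and 557 in knockdowns 1, 2 and 3, against 412, 983 and 847 in controls 1, 2 and 3, so each knockdown library kept 32.6% to 65.8% of the control with its number, and the groups overlapped. Libraries with the same number moved together across genes, although knockdown 2 also followed control 3 and knockdown 3 control 2. Differences are therefore described by pairs of the same number. The main limma fit and the permutation tests held no term for the number, which entered only in alternative tests. All 6 epithelial markers (Epcam, Cdh1, Krt7, Krt8, Krt18, Krt19) were present, with a summed count of 217666 to 578068 in knockdown and 165847 to 235714 in control libraries. Of 12 immune cell markers 1 was listed, Cd68, a lysosomal protein best known from macrophages, at 117 to 988 in knockdown and 98.6 to 136 in control libraries, while defining markers such as Ptprc, Cd3e, Adgre1 and Lyz2 were not listed. Of 6 fibroblast markers 2 were listed, Pdgfra and Pdgfrb, with sums of 28.9 to 45.5 in knockdown and 35.6 to 44.8 in control libraries, and 0 of 4 endothelial markers. In bulk RNA, fewer cells that express a gene and less RNA per cell cannot be told apart.

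Levels were set side by side as reads per kilobase of the main transcript per 1000000 reads. The heavy chains and B2m were the most abundant of the 10, and the immunoproteasome subunits, Cd274 and Nlrc5 the least. H2-K1 averaged 425 over the 6 libraries (269 to 618), B2m 375 (312 to 464) and H2-D1 318 (185 to 449.6). The ranges of these 3 neighbours overlapped. Tapasin followed at 94.7 (41.8 to 134), apart from its neighbours on either side in every library. Tap1 averaged 6.90 and Tap2 3.95, with Tap1 above Tap2 in 6 of 6 libraries though their ranges overlapped. Psmb8 (2.36), Psmb9 (2.04) and Cd274 (1.42) could not be ordered beyond the spread of the libraries, and Nlrc5 was lowest at 0.219 (0.0867 to 0.483). The spread over libraries differed widely between the genes. The highest library was 1.49 times the lowest for B2m, 2.29 times for H2-K1, 2.43 times for H2-D1 and 3.21 times for Tapbp. It was 4.33 times the lowest for Tap2, 5.57 times for Nlrc5, 6.09 times for Tap1, 9.48 times for Cd274, 18.0 times for Psmb8 and 21.7 times for Psmb9.

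**Figure D1:**
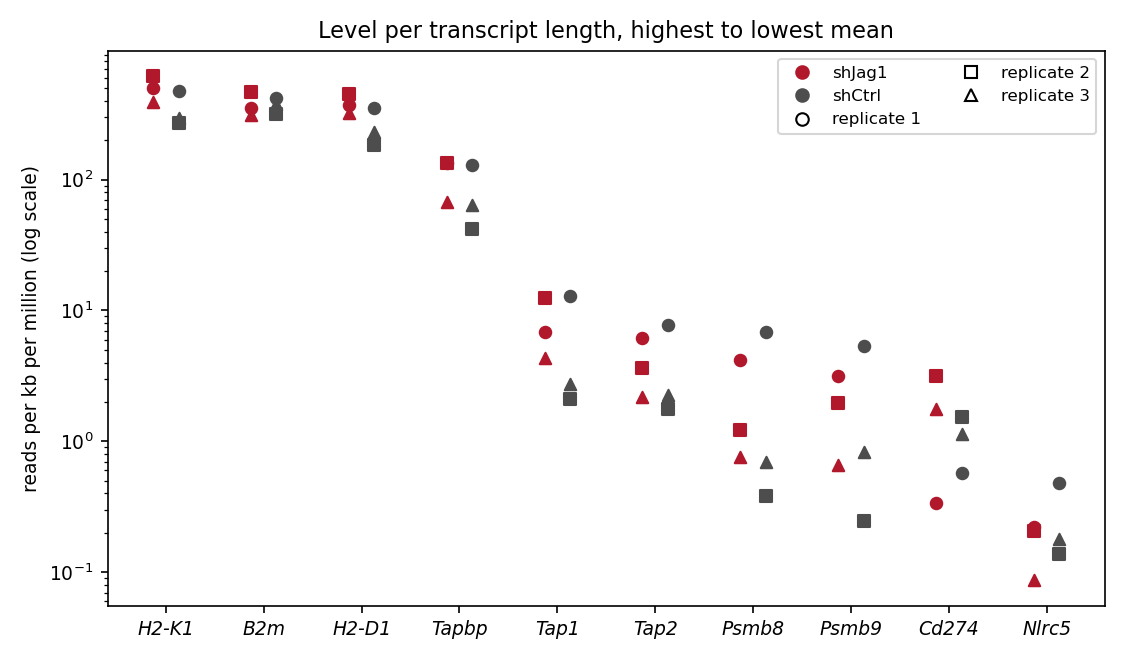
Level of each gene per length of its main transcript (reads per kilobase per 1000000 reads, log axis) in each of the 6 libraries, shJag1 in red left of shCtrl in grey, with a marker shape for each replicate number. H2-K1, B2m and H2-D1 averaged 425, 375 and 318, while Tap1, Tap2, Psmb8, Psmb9, Cd274 and Nlrc5 averaged under 10.

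For none of the 10 genes was a difference between knockdown and control shown to be larger than the spread of the replicates. By limma across 13997 genes, 0 of 10 passed an adjusted p of 0.05, with adjusted p from 0.686 (H2-D1) to 0.993 (B2m), and 0 of 10 had an unadjusted p under 0.05. Over all genes limma called 0% as well, and 7.29% had an unadjusted p under 0.05. edgeR also called 0 of 10, and 0% of all genes, and DESeq2 called 0 of 10, and 1.24% of all genes. Once the fit held a term for replicates, 0 of 10 passed in limma, edgeR and DESeq2. The share of all genes called was then 0.0143% in limma and in edgeR and 7.15% in DESeq2, which called 2.58% of all genes as lower. Replicates 2 and 3 alone, with 2 libraries per group, leave out the replicate 1 libraries, which stand apart for several members. The p-values of this subset follow a split seen in the values, so they only describe. In it 0 of 10 passed where limma called 9.62% of all genes (3.57% as lower), and the median change of the 10 was 0.85. The groups overlapped for all 10 genes, while 11.7% of all genes had groups that did not overlap, 6.29% with the knockdown higher. The log2 changes, knockdown minus control, were positive for 9 of 10, with a median of 0.46, against 50.3% positive and a median of 0.00 over all genes. This shift depended on single libraries: without control 2, 5 of 10 were positive, with a median of 0.09. Without control 1, 8 of 10 were positive, with a median of 0.83. In edgeR and DESeq2 without the replicate term 7 of 10 were positive, with medians of 0.27 and 0.28. With scaling by the spike-in reads, which moved the median of all genes to -0.18, the median of the 10 was 0.28. Spike-in reads made up 0.462% (knockdown 3) to 1.04% (knockdown 2) of a library.

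**Figure D2:**
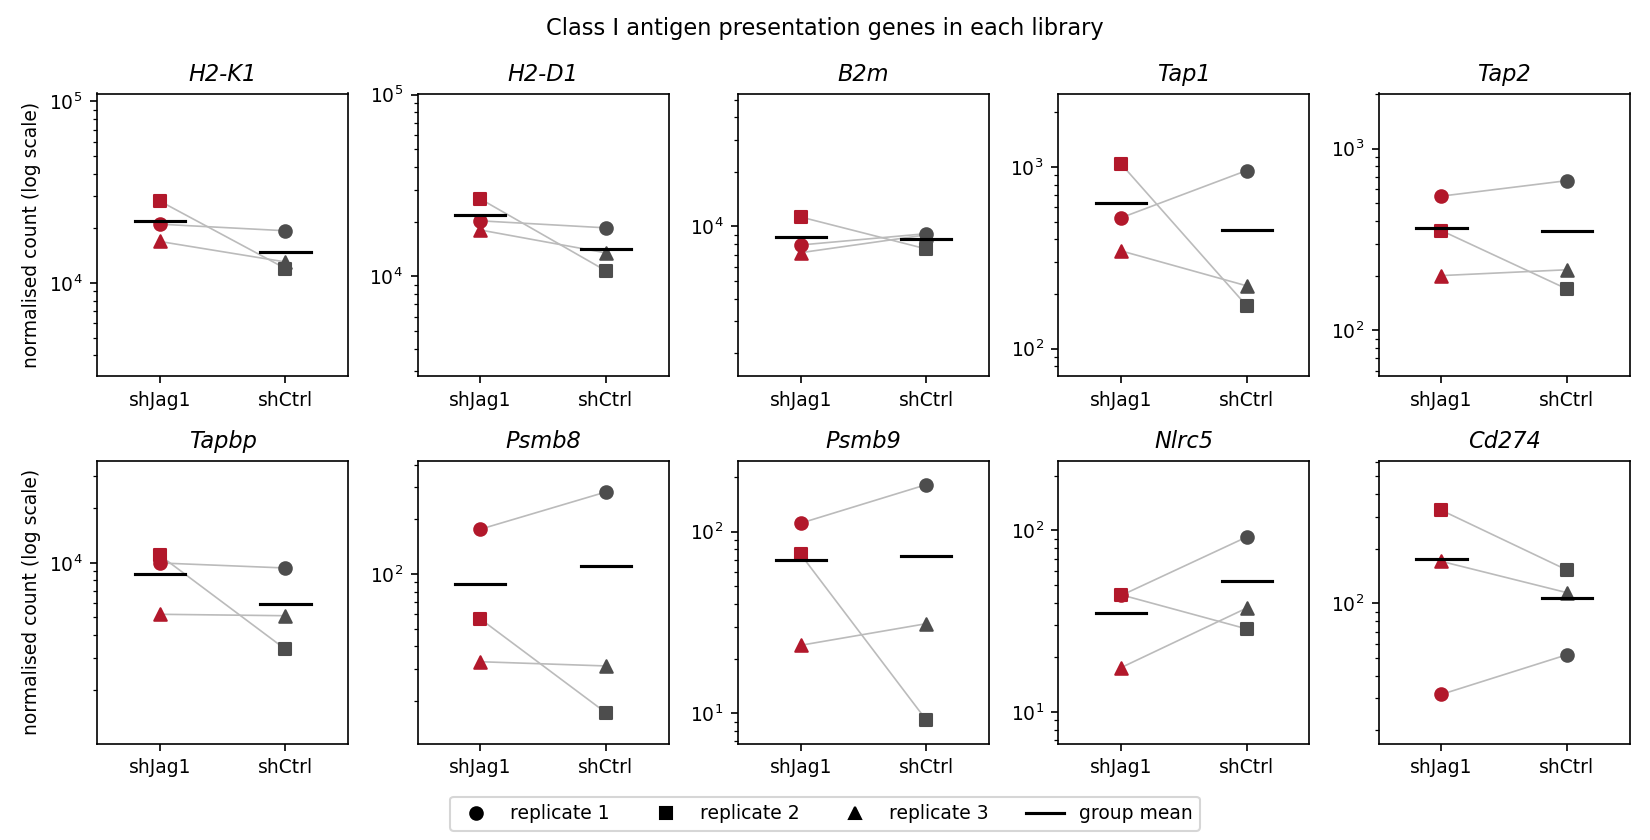
Normalised count of each gene (log axis, each panel spanning the same fold range) in knockdown (red) and control (grey) libraries, with lines joining libraries of the same replicate number and bars at the group means of 3. The groups overlap in every panel, and control 1 is the highest control for H2-K1, Tap1, Psmb8 and most others but the lowest for Cd274.

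The heavy chains bind the peptide and pair with B2m, and they were the members that came nearest to a difference. H2-K1 (ENSMUSG00000061232) is on chromosome 17 (GRCm38, 33996017 to 34000347, minus strand), and had 21092, 28245 and 16939 normalised counts in knockdowns 1, 2 and 3, against 19410.0, 12028 and 13069 in controls 1, 2 and 3. H2-D1 (ENSMUSG00000073411, chromosome 17, 35262730 to 35267499, plus strand) had 20214, 26683 and 17995 in knockdowns 1, 2 and 3, against 18495, 10737 and 13464 in controls 1, 2 and 3. Each knockdown library was above the control with its number, by most in pair 2, but control 1 lay above knockdown 3. The log2 change was 0.58 (SE 0.27, adjusted p = 0.701 in limma) for H2-K1 and 0.62 (SE 0.26, adjusted p = 0.686 in limma) for H2-D1, and with the replicate term the adjusted p was 0.261 and 0.250 in limma. On replicates 2 and 3 alone H2-D1 stood at 0.87 with an adjusted p of 0.0753 in limma, the lowest that any of the 10 genes reached under any setting tried. B2m (ENSMUSG00000060802, chromosome 2, 122147686 to 122153083, plus strand), the invariant light chain, had 7909, 11279 and 7173 in knockdowns 1, 2 and 3, against 9129, 7522 and 8990.3 in controls 1, 2 and 3. It was higher in the knockdown of pair 2 and lower in those of pairs 1 and 3, and its log2 change of 0.02 (SE 0.22, adjusted p = 0.993 in limma) became -0.16 with spike-in scaling, close to the median of all genes.

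H2-K1 and H2-D1 moved alike, with log2 differences of 0.12 and 0.13 in pair 1, 1.23 and 1.31 in pair 2, and 0.37 and 0.42 in pair 3. They are related genes, so reads can be shared between them and with other class I genes. Of the 50-base stretches of their main transcripts, 8.79% in H2-K1 and 14.3% in H2-D1 also stand in transcripts of other genes of any kind, against 0% in B2m. The gene that shared most was H2-D1 for H2-K1 (6.94% of stretches) and H2-Q1 for H2-D1 (7.40%), where 103 genes shared some. The files give neither the read length nor how reads with several places were counted, and class I genes differ between mouse strains, so the split between the 2 genes is uncertain. Their promoters are also alike. The windows below, from RefSeq on GRCm38.p6, run from 250 bases before to 50 after the transcription start and are shown because they carry the class I elements described in textbooks, enhancer A and the interferon response element beside it, and because these genes moved alike. Capitals mark enhancer A (first run), the class I interferon response element (second run) and the Y box (CCAAT or its reverse ATTGG), and these runs spell the letters searched. Windows were found for 8 of the 10 genes, all but Tap2 and Nlrc5. The first window is H2-K1 at chr17:34000298-34000597 (minus strand) and the second H2-D1 at chr17:35262844-35263143 (plus strand).
H2-K1: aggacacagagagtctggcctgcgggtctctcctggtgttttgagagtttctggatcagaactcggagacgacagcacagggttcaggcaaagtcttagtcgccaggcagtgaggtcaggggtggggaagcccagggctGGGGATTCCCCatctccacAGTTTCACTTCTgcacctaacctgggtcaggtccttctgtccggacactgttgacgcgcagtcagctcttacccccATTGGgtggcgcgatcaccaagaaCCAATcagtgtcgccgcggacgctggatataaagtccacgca
H2-D1: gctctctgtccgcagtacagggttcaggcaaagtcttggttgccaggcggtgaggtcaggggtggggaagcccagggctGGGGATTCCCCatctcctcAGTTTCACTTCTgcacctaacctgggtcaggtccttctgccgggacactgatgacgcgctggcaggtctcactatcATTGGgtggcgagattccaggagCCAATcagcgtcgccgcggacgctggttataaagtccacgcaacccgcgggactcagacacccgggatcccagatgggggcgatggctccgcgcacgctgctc

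The H2-K1 and H2-D1 windows of 300 bases were aligned with free ends, so overhanging ends and gaps are not counted. Of the 239 bases that aligned, 211 (88.3%) were the same. Enhancer A stood in both, with its first base at -111 from the start in H2-K1 and at -171 in H2-D1, and the interferon response element followed 19 bases later in each. From another RefSeq start of H2-K1, whose window is not printed, enhancer A stood at -125, and 87.7% of 253 aligned bases were the same as in H2-D1. Searched on both strands, enhancer A was found in 10 of 32851 promoter windows (0.0304%), and 3 of its 9 genes were class I genes (H2-K1, H2-D1 and H2-Q6). The interferon response element was found in 11 windows (0.0335%), and 6 of its 10 genes were class I genes (H2-K1, H2-D1, H2-Q4, H2-Q6, H2-Q7 and H2-Q10). The Y box is common, at 37.4% of windows, and a CRE-type motif (TGACGT, 7.51% of windows) stood in 0 of the 8. A match describes the letters only, and binding was not measured.

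B2m carries a different set. In its window at chr2:122147437-122147736 (plus strand), capitals mark an ISRE-type match (GAAA, any 2 bases, GAAA; the interferon-stimulated response element, 3.44% of windows), a kappa B-type match (GGG, any 2 bases, TTTCC; the NF-kB motif, 1.63% of windows) and the Y box, each searched on both strands.
B2m: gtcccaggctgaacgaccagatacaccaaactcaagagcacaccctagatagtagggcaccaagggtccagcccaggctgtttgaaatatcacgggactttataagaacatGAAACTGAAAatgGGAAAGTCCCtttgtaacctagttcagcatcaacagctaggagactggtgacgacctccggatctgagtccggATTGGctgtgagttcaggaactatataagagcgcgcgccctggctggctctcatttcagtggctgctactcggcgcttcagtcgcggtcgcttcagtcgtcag

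The kappa B-type match overlaps an RBPJ-type match (TGGGAA, the core motif of the factor through which Notch acts), a motif present in 25.6% of windows and in 5 of the 8 members with a window (B2m, Tap1, Tapbp, Psmb8 and Psmb9). The windows of Tap1 and Psmb9 share 275 bases, and their RBPJ-type matches are the same site, so these members do not count separately.

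Peptide transport and loading genes spread more widely. Tap1 (ENSMUSG00000037321, chromosome 17, 34187553 to 34197225, plus strand), the first chain of the transporter, had 525, 1039.5 and 345 normalised counts in knockdowns 1, 2 and 3, against 956, 172 and 222 in controls 1, 2 and 3. The knockdown of pair 1 had 0.549 times the count of its control, that of pair 2 had 6.03 times and that of pair 3 had 1.56 times. The log2 change of 0.79 (SE 0.71, adjusted p = 0.856 in limma) thus averages over pairs that differ in sign, and on replicates 2 and 3 alone it was 1.61 (adjusted p = 0.108 in limma). Tap2 (ENSMUSG00000024339, chromosome 17, 34203527 to 34216321, plus strand), the partner chain, had 548, 354 and 200.2 in knockdowns 1, 2 and 3, against 667, 169 and 216 in controls 1, 2 and 3. Only the knockdown of pair 2 was above its control, and the log2 change was 0.22 (SE 0.60, adjusted p = 0.964 in limma). Tapbp (ENSMUSG00000024308, chromosome 17, 33915899 to 33929292, plus strand), tapasin, had 9978, 10982 and 5205 in knockdowns 1, 2 and 3, against 9361, 3341 and 5111 in controls 1, 2 and 3. Pairs 1 and 3 were nearly level at 1.07 and 1.02 times, while pair 2 stood at 3.29 times, and the log2 change was 0.61 (SE 0.44, adjusted p = 0.817 in limma).

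The immunoproteasome subunits take the place of constitutive subunits of the proteasome and cut peptides that fit class I molecules better. Psmb8 (ENSMUSG00000024338, chromosome 17, 34197721 to 34201454, plus strand), which replaces Psmb5, had 176, 56.5 and 32.9 normalised counts in knockdowns 1, 2 and 3, against 283, 17.2 and 31.1 in controls 1, 2 and 3. Psmb9 (ENSMUSG00000096727, chromosome 17, 34181987 to 34187764, minus strand), which replaces Psmb6, had 111, 75.0 and 23.7 in knockdowns 1, 2 and 3, against 181, 9.19 and 31.1 in controls 1, 2 and 3. Both were highest in the replicate 1 libraries, where the knockdown was below the control, and lowest in control 2. Counts were thin in that library, with 15 reads for Psmb8 (exact 95% Poisson interval 8.40 to 24.7, counting error only) and 8 for Psmb9 (3.45 to 15.8), against 46 (33.7 to 61.4) and 61 (46.7 to 78.4) in knockdown 2. The log2 changes were 0.35 (SE 1.11, adjusted p = 0.971 in limma) for Psmb8 and 0.61 (SE 1.09, adjusted p = 0.934 in limma) for Psmb9. Their sign is not settled: edgeR without the replicate term gave -0.34 and -0.10, and DESeq2 without it -0.32 and -0.082.

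Tap1 and Psmb9 are read in opposite directions from starts 226 bases apart, at 34187556 for Tap1 and 34187330 for Psmb9 in RefSeq on GRCm38.p6, so their promoter windows share 275 bases. The Tap1 window at chr17:34187306-34187605 (plus strand) is printed because it serves as the start region of both genes. Capitals mark the Y box, and no ISRE-type or GAS-type (TTCNNNGAA, 8.30% of windows) letters stand in this window.
Tap1: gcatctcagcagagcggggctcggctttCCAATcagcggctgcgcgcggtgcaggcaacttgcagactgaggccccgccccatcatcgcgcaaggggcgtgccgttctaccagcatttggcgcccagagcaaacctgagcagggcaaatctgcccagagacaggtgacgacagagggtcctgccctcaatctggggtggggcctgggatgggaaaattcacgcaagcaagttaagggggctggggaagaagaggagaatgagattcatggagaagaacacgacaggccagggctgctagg

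The kit does not mark strand, and the annotated exons of the pair overlap by 212 bases (3.87% of those of Tap1 and 5.79% of those of Psmb9), so that reads there cannot be told apart. The pair moved together in pairs 1 and 2, at -0.86 and -0.70 in pair 1 and 2.59 and 2.90 in pair 2 for Tap1 and Psmb9, and apart in pair 3, at 0.64 and -0.38.

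Set against its constitutive counterpart, the immunoproteasome was below it in every library. Per length, Psmb8 was at 1.55%, 0.698% and 0.450% of Psmb5 in knockdowns 1, 2 and 3, against 2.80%, 0.219% and 0.398% in controls 1, 2 and 3. Psmb9 was at 0.979%, 0.903% and 0.343% of Psmb6 in knockdowns 1, 2 and 3, against 1.93%, 0.136% and 0.448% in controls 1, 2 and 3. Psmb10, the third immunoproteasome subunit and no member of the list, was at 30.5%, 23.6% and 16.7% of Psmb7 in knockdowns 1, 2 and 3, against 22.9%, 18.8% and 22.03% in controls 1, 2 and 3. The replicate 1 libraries had the highest share of Psmb8 and Psmb9 in each group, and the groups overlapped for all 3 ratios. The log2 ratio differed by 0.31 for Psmb8, 0.42 for Psmb9 and 0.11 for Psmb10, and exact two-sided permutation tests gave p = 0.8, 0.7 and 0.7 (adjusted over the 3 ratios 0.8 each), where 3 against 3 libraries cannot go below 0.1. The constitutive subunits Psmb5, Psmb6 and Psmb7 had log2 changes of 0.04, 0.19 and 0.12 (adjusted p from 0.901 to 0.987 in limma).

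**Figure D3:**
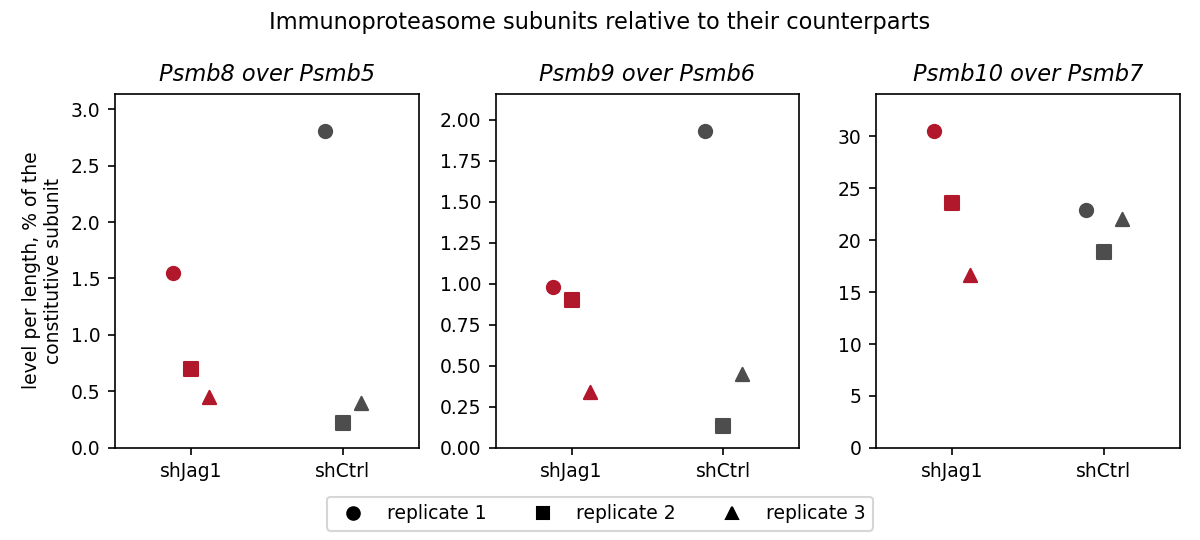
Level per length of Psmb8, Psmb9 and Psmb10 as a percentage of Psmb5, Psmb6 and Psmb7 in each library, shJag1 (red) left of shCtrl (grey), each axis from 0. Control 1 is highest for Psmb8 and Psmb9 at 2.80% and 1.93%, whereas Psmb10 lies between 16.7% and 30.5% in all 6 libraries.

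Nlrc5 (ENSMUSG00000074151, chromosome 8, 94434356 to 94527272, plus strand), the activator of class I genes, was the 1 member with a negative log2 change. It had 43.9, 44.2 and 17.6 normalised counts in knockdowns 1, 2 and 3, against 92.0, 28.7 and 37.4 in controls 1, 2 and 3. The knockdown was at 0.477 and 0.470 times its control in pairs 1 and 3 and at 1.54 times in pair 2. The change was -0.50 (SE 0.59, adjusted p = 0.891 in limma), on 23 to 111 reads per library. Although 0 of its alternatives changed the sign, the size depended on single libraries. It was -0.01 without control 1, -0.07 without knockdown 3 and -0.83 without control 2. Nlrc5 and the heavy chains thus had opposite signs in pairs 1 and 3 and the same sign in pair 2, a description of 6 libraries with no test of the difference.

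Cd274 (ENSMUSG00000016496, chromosome 19, 29367455 to 29388095, plus strand) had 31.6, 326 and 170.4 normalised counts in knockdowns 1, 2 and 3, against 52.2, 153 and 115 in controls 1, 2 and 3. It was lowest in the replicate 1 libraries, where Psmb8, Psmb9 and Tap2 were highest in their groups. The knockdown was at 0.605 times its control in pair 1, 2.13 times in pair 2 and 1.49 times in pair 3, and the log2 change was 0.32 (SE 0.87, adjusted p = 0.965 in limma). Without control 1 the change was -0.13, without knockdown 2 it was -0.39, and without knockdown 1 it was 1.27 (adjusted p = 0.495 in limma).

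For several genes the replicate 1 libraries differed from the others by more than the groups did. The mean log2 level of the replicate 1 libraries minus that of the other 4 was 2.78 for Psmb8, 2.35 for Psmb9, 1.42 for Tap2, 1.05 for Tap1 and Nlrc5 and 0.79 for Tapbp, it was 0.29, 0.25 and -0.02 for H2-K1, H2-D1 and B2m, and -2.09 for Cd274. What the numbers stand for is not given in the labels, so the number is described and not tested. The replicate 1 libraries also had the lowest share of mitochondrial reads, at 0.551% in knockdown 1 and 0.592% in control 1, against 1.01% to 2.02% in the others. Whether this bears on the members was not tested. The log2 range over the 6 libraries was larger than in 96.8% of all tested genes for Psmb9, 96.4% for Psmb8, 94.1% for Cd274 and 89.8% for Tap1, while that of B2m was larger than in 25.9%. The direction of the knockdown depended on the pair. In pair 1 the knockdown was higher for 3 of 10 genes and lower for 7, with a median log2 difference of -0.48. In pair 2 it was higher for 10 of 10, with a median of 1.27, and in pair 3 for 6 of 10, with a median of 0.05. Over all genes 51.8%, 49.4% and 51.0% were higher in the knockdown of pairs 1, 2 and 3. H2-K1, H2-D1 and Tapbp were higher in all 3 pairs, 3 of 10 where 22.3% of all genes were, and 0 of 10 were lower in all 3, where 19.7% of all genes were. Tap1, Psmb8 and Cd274 were lower in pair 1 and higher in pairs 2 and 3, again 3 of 10 where 14.2% of all genes were, and 0 of 10 had the opposite pattern, where 16.3% of all genes did.

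**Figure D4:**
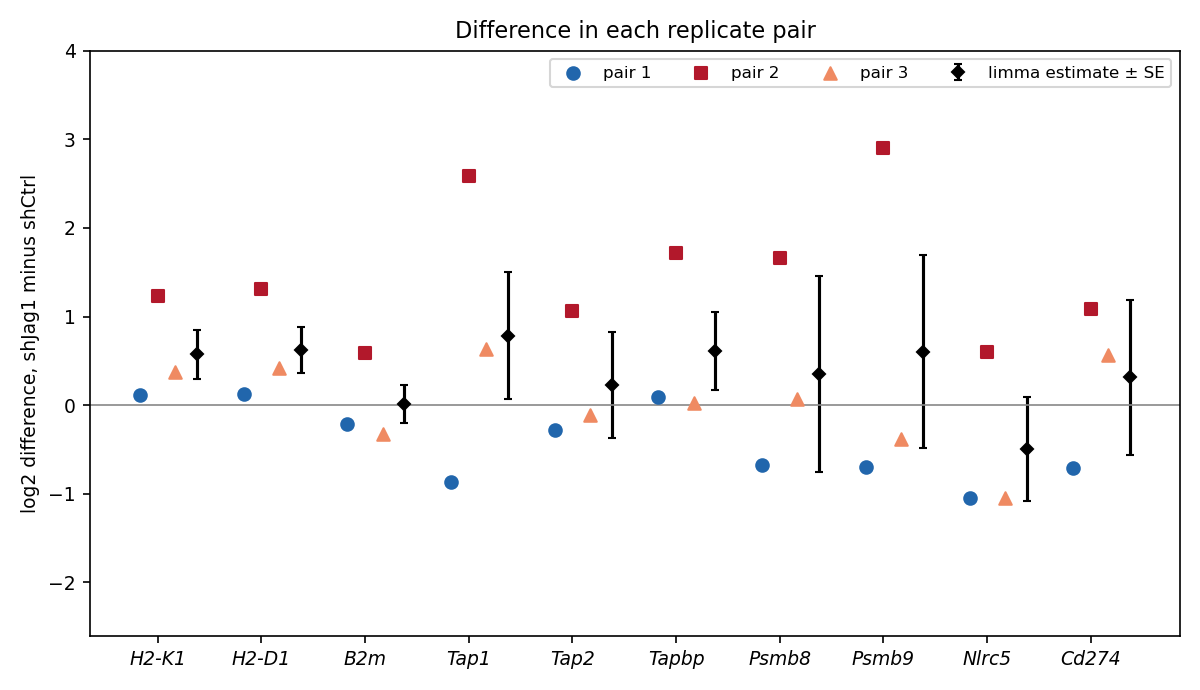
Log2 difference of normalised counts, shJag1 minus shCtrl, for each gene in each replicate pair (coloured markers), with the limma estimate over the 3 replicates of each group and its standard error (black). Pair 2 is above 0 for all 10 genes, pair 1 below 0 for 7, and the estimates stay within about 2 standard errors of 0 except for H2-K1 and H2-D1 at 0.58 ± 0.27 and 0.62 ± 0.26.

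The genes whose pattern over the 6 libraries lay nearest to single members were read off by the root mean square difference of centred log2 values, a description with no test. Candidates were 11634 genes outside the list with a mean count of at least 50, and for single members also the other members at that level. No member had another member as its nearest gene. The nearest to Tap1 was Rtp4 (0.19), a gene known to be induced by interferon, at 1055, 1599 and 634 in knockdowns 1, 2 and 3, against 1759.7, 245 and 447 in controls 1, 2 and 3. The nearest to Psmb8 was Ifit2 (0.30) and to Psmb9 Ifit1 (0.26), 2 members of a family of interferon-induced RNA-binding proteins. Ifit1 had 449.9, 273 and 121 in knockdowns 1, 2 and 3, against 882, 32.2 and 99.7 in controls 1, 2 and 3. The nearest to Nlrc5 was Igtp (0.22), an interferon-inducible GTPase, at 212, 229.8 and 91.7 in knockdowns 1, 2 and 3, against 402, 96.5 and 158 in controls 1, 2 and 3. These genes shared the high control 1 and the low control 2 of the members they lay near. The nearest to Tap2 was Mgat4a (0.13) and to Tapbp Fuca1 (0.18), both enzymes that act on glycans, and to Cd274 the Wnt receptor Fzd7 (0.24), at 116, 959.7 and 815 in knockdowns 1, 2 and 3, against 159.9, 469 and 394 in controls 1, 2 and 3. The nearest to H2-K1, H2-D1 and B2m were Pik3cd (0.07), Cdk3-ps (0.07) and Gnrh1 (0.09), each at low counts of 37.4 to 149 and thus with more counting error than those members. The mean pattern of the 10 genes lay nearest to Pcyt1b (0.13), Fbxw17 (0.15) and Parp9 (0.18).

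Interferon-gamma signalling genes were measured beside the members: 12 of 12 were tested, 0 passed limma in either direction, 7 changes were positive and 5 negative, and the median log2 change was 0.04. Stat2, a transcription factor of the interferon response, had 1024, 2573 and 1453 normalised counts in knockdowns 1, 2 and 3, against 1323, 679 and 759.9 in controls 1, 2 and 3, and on replicates 2 and 3 alone it passed as higher (1.43, adjusted p = 0.0371 in limma), as did 6.04% of all genes. The receptor chain Ifngr2 had 3328, 4295 and 3361 in knockdowns 1, 2 and 3, against 2912, 2352 and 2443 in controls 1, 2 and 3, with groups that did not overlap and a change of 0.51 (SE 0.18, adjusted p = 0.643 in limma). The kinase Jak1 stood at -0.20 (adjusted p = 0.831 in limma). Of 10 factors known from class I promoters (subunits of RFX and NF-Y, Creb1, Atf1, Rela, Nfkb1), 0 passed, 5 changes were positive and 5 negative, and the median was -0.02. The RFX subunit Rfxap stood at 0.56 (adjusted p = 0.701 in limma), Nfyb at 0.22, Nfkb1 at -0.17 and Rela at 0.11.

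Other class I heavy chains were listed and tested for 11 of 14 genes, of which 0 passed limma, with 9 positive and 2 negative changes and a median of 0.26. H2-Q7 had 223, 265 and 98.6 normalised counts in knockdowns 1, 2 and 3, against 204, 52.8 and 49.8 in controls 1, 2 and 3 (log2 change 1.13, SE 0.65, adjusted p = 0.762 in limma). H2-Q10 had 28.1, 229 and 64.2 in knockdowns 1, 2 and 3, against 19.1, 49.4 and 26.2 in controls 1, 2 and 3 (1.33, SE 0.79, adjusted p = 0.770 in limma). As with H2-K1 and H2-D1, knockdowns were above their controls by most in pair 2. H2-Q2 was near the detection limit, at 7.89, 25.8 and 18.3 in knockdowns 1, 2 and 3, against 17.4, 1.15 and 0 in controls 1, 2 and 3. It passed as higher on replicates 2 and 3 alone (adjusted p = 0.0213 in limma), as did 6.04% of all genes. That subset leaves out pair 1, where the knockdown was lower, and its p-values only describe. Mr1, which presents vitamin B metabolites to innate-like T cells, had 45.6, 43.0 and 39.0 in knockdowns 1, 2 and 3, against 52.2, 96.5 and 79.7 in controls 1, 2 and 3. Its groups did not overlap and its change was -0.78 (SE 0.35, adjusted p = 0.699 in limma). The share of 50-base stretches found in other genes was 40.2% for H2-Q7 and 8.03% for H2-Q10, against 0% for Mr1.

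Of the 10 further genes of peptide supply and loading 0 passed limma, with 7 positive and 3 negative changes and a median of 0.12. The chaperone calnexin (Canx) stood at -0.22, the proteasome activator subunit Psme2 at 0.32, the chaperone calreticulin (Calr) at 0.27 and Psmb10 at 0.23, with adjusted p from 0.824 to 0.933 in limma. Class II presentation was all but silent: Ciita, H2-Aa, H2-Ab1 and H2-Eb1 were not listed, and H2-DMa, H2-DMb1 and Cd74 together summed to 48.9 to 131 normalised counts in knockdown and 62.0 to 103 in control libraries. Among ligands and regulators of immune checkpoints 7 of 10 genes were tested, 0 passed limma and all 7 changes were positive, with a median of 0.10. With the replicate term DESeq2 called 3 of the 7 as higher, where 4.57% of all genes were. They were the poliovirus receptor family ligands Nectin2 (0.79, adjusted p = 0.00818 in DESeq2) and Pvr (0.62, adjusted p = 0.0225 in DESeq2), which bind TIGIT and CD226 on T and NK cells, and galectin-9 (Lgals9, 1.08, adjusted p = 0.0387 in DESeq2), a ligand of TIM-3. None of the 3 passed limma or edgeR over the 6 libraries, with or without that term. Nectin2 had 6005, 8238 and 4577 in knockdowns 1, 2 and 3, against 3377, 3651 and 3574 in controls 1, 2 and 3, with no overlap. The groups of Pvr and Lgals9 overlapped, as did those of Cd274. Lgals9 was highest in control 1, at 6956, and its knockdown was at 0.944 times the control in pair 1. Cd68 was above its control in each pair, at 117, 988 and 400.4 in knockdowns 1, 2 and 3, against 98.6, 136 and 111 in controls 1, 2 and 3, with Ptprc, Adgre1, Csf1r, Itgam and Lyz2 not listed. The epithelial markers Epcam, Krt8 and Krt19 were also called by that fit (log2 changes 1.37, 1.08 and 1.44), and whether the share of epithelial RNA bears on the class I genes was not tested.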

How the data were processed

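Total RNA was made into TruSeq v2 libraries per the labels' protocols, a kit that does not mark strand. Trimmomatic, STAR 2.5.2b, DESeq2 1.32.0 and the build GRCm38 are named in the submitters' processing notes; the counter, the annotation and the filter are not given in the sources used here. The deposited signal values are normalised counts, which the authors made by dividing reads by 1 size factor per library: within 0.001 of a read, 100% of values were whole multiples of 1 step, so whole reads were recovered. The 6 deposited tables were identical and 1 was used. It held 14302 features, 48 of them ERCC spike-ins, and 14219 of 14254 gene identifiers matched a symbol of GENCODE M21.

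Groups came from the sample titles. The test was limma-trend (limma 3.58.1, R 4.3.3) on log2(normalised count + 1) over the 13997 genes with at least 10 in at least 3 libraries, with Benjamini-Hochberg adjustment at 0.05. Fold changes on this scale understate those of low genes. Alternatives were edgeR 4.0.16 and DESeq2 1.42.0 on the recovered reads, the replicate number as a term, another pseudocount, other filters, spike-in scaling and left-out libraries. The fits were tested on simulated data. Over genes, each library's deviation from its group mean had r = 0.68, 0.57 and 0.44 with that of the library sharing its number (1, 2 and 3), over the threshold of 0.1 for every pair; knockdown 2 with control 3 (0.38) and knockdown 3 with control 2 (0.37) passed it too. Levels per length used the longest APPRIS principal transcript of GENCODE M21. Named were the 10 members, up to 4 genes per list with the smallest p (1 of them is not reported here), the 3 genes nearest to the mean pattern and the 1 nearest to each member; Jak1, Psme2, Calr and Psmb10 follow from it. Any other named gene, the promoter motifs and the windows printed were chosen after values or sequences were seen. The members and the 11 further lists (94 genes) were chosen with earlier results of these data known. Replicates are called biological in the series text, with no word on separate cultures or days.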

Additional observations from a re-analysis of the deposited data

How the results depend on the processing

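None of the 10 genes was called under any of the alternatives run, where adjusted p ran from 0.0753 to 1.00. Of 159 recomputed changes, 144 kept their sign, with those of H2-K1, H2-D1, Tap1, Tapbp and Nlrc5 in every one. Nlrc5 gave no value with a filter at 50 counts. The replicate term in limma and the other filters cannot alter the limma change of a gene, so the signs kept there were fixed in advance. Without the replicate term, edgeR turned Psmb8 to -0.34 and Psmb9 to -0.10 and DESeq2 to -0.32 and -0.082, and spike-in scaling turned B2m to -0.16; the cause was not tested. With 1 library left out, changes ran from -0.18 to 0.15 for B2m, -0.16 to 0.83 for Tap2, -0.44 to 1.54 for Psmb8, -0.36 to 1.72 for Psmb9 and -0.39 to 1.27 for Cd274, and log2 ratios from -0.42 to 1.38 for Psmb8 to Psmb5, -0.47 to 1.38 for Psmb9 to Psmb6 and -0.094 to 0.34 for Psmb10 to Psmb7, the last -0.039 on replicates 2 and 3. The highest log2 changes of Psmb8 and Psmb9 came without control 1 and the lowest without control 2.

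The count over all genes, 0 higher and 0 lower in limma, was 0 and 0 in edgeR, 101 and 73 in DESeq2, 77 and 39 with spike-in scaling, 0 to 210 higher and 0 to 84 lower with 1 library left out (210 and 84 without control 1, 1 and 0 without knockdown 1), and 846 and 500 on replicates 2 and 3. With the replicate block it was 2 and 0 in limma and in edgeR, and 640 and 361 in DESeq2, and flipping signs within pairs gave exact p = 0.75, 1.0 and 0.75 for the 3 ratios, where 3 pairs cannot go below 0.25. The block changed no call among the 10 genes. At 8 to 341 reads per library, counting error adds to the spread of Psmb8, Psmb9, Nlrc5 and Cd274.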
